A study of Homo sapiens with 30 samples.

Results

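The 10 genes examined are the AP-1 and immediate early factors FOS, FOSB, FOSL1, FOSL2, JUN, JUNB, JUND, ATF3, EGR1 and IER2. They were taken by name from the deposited gene count table, which gave 10 of its 58780 genes, and all 10 were among the 22919 genes with enough counts to be tested. AP-1 is a family of dimeric transcription factors that pairs a FOS or ATF protein with a JUN protein through a leucine zipper (a bZIP domain) and binds short palindromic DNA sites. Many of its genes are immediate early genes, which growth factor and stress kinases switch on within minutes without new protein synthesis. The glucocorticoid receptor, which dexamethasone activates, is known to oppose AP-1 at many inflammatory genes in airway epithelium.

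Nascent transcription was measured by PRO-seq, in which permeabilised cells extend the RNA held by engaged polymerases with labelled nucleotides, so that the counts report transcription under way and not RNA abundance. The cells were A549, an established human lung adenocarcinoma line. The study asked how nascent transcription responds to inhibitors of protein arginine methyltransferases (PRMT) and to dexamethasone (Dex), alone and combined. GSK591 inhibits PRMT5, a type II enzyme, and MS023 inhibits the type I enzymes. There were 15 groups of 2 libraries, 30 in all, and every label gives 0.01% DMSO. The groups were untreated cells; 100 nM Dex for 15 min or 3 h; 3 h of Dex together with 1 µM GSK591 or with 1 µM MS023; 1 µM of either inhibitor for 2, 4 or 7 days; and 7 days of either inhibitor followed by Dex for 15 min or 3 h. One untreated group, labelled with a 15 min time, served every comparison with untreated cells, including those at 3 h and at 2, 4 and 7 days, so these comparisons share their control libraries. The labels do not say that the libraries of a group came from separate cultures, so the p-values measure the spread between these libraries, which may be technical.

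Total counts per library ran from 8441211 to 13069598, of which mitochondrial genes took 58.7% to 78.7%. Nuclear counts outside ribosomal RNA were 2497281 to 3934713. The mitochondrial share was 58.7% to 64.2% in the 6 libraries with 7 days of MS023, with or without Dex, and 61.0% to 78.7% in the other libraries. Levels below are CPM values (counts scaled to a common library size) with TMM factors, which sets the typical gene to no change. When libraries were scaled by total counts instead, the median over all genes moved by 1.02 on the log2 scale at 7 days of MS023, 0.74 at 4 days and 0.67 at 2 days, by 0.29, 0.41 and -0.03 at 2, 4 and 7 days of GSK591, and by 0.31 and 0.15 for Dex at 15 min and 3 h. Every change below is therefore a change relative to the typical gene. Epithelial markers were present in every library, with 1325 to 3485 summed CPM of nuclear counts over 6 genes. The 9 markers of other cell types summed to 14.2 to 47.3 CPM. They were highest, at 37.5 to 47.3 CPM, in the 4 libraries with 7 days of MS023 alone or followed by 15 min of Dex (33.0 and 25.5 CPM with 3 h of Dex). Among these 9, CD3E had a median of 0 counts and DCN 0.5, but COL1A1 had 37.5 (22 to 105). That was above the epithelial genes EPCAM (24) and CDH1 (29.5). With mitochondrial and ribosomal RNA genes left out before TMM scaling, all 270 member values kept their direction and call. Total counts include the mitochondrial genes, and the part of the mitochondrial share in the total-count values was not tested. Nor was the part of the marker sums in the results below. Of 3 Dex-responsive genes (PER1, FKBP5 and TSC22D3), 2 were called higher at 15 min of Dex and 3 at 3 h. TSC22D3 was higher by 1.87 (log2) at 15 min and by 2.89 at 3 h.

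Positions are those of GENCODE 29 on GRCh38. FOS is at chr14:75278774-75282230 and FOSB at chr19:45467995-45475179, both on the plus strand. FOSL1 is at chr11:65892049-65900573 on the minus strand and FOSL2 at chr2:28392448-28417312 on the plus strand. JUN at chr1:58780788-58784327 and JUND at chr19:18279760-18281622 are on the minus strand, JUNB at chr19:12791496-12793315 is on the plus strand, and these 3 genes have a single exon. ATF3 at chr1:212565334-212620777, EGR1 at chr5:138465490-138469315 and IER2 at chr19:13150415-13154908 are on the plus strand. An exon of HOOK2 overlaps JUNB and an exon of AC011446.2 overlaps IER2 on the opposite strand. The strand setting of the counting is not given in the sources used here, so reads of these overlapping stretches cannot be assigned with certainty.

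Promoter sequence from RefSeq (GRCh38.p14) was available for 9 of the 10 genes; FOSL1 had no entry in the table used. The 250 bases upstream of each RefSeq start site were searched on both strands for sites of the factors' own pathway. These start sites can differ from the GENCODE positions above. The windows of JUN (chr1:58784048-58784297) and FOSL2 (chr2:28392608-28392857) lie inside the genes as placed there. The FOS window (chr14:75278578-75278827) and an ATF3 window (chr1:212565157-212565406) run past the gene starts. The same search was run on 35116 promoters. Of these, 1.65% held TGACGTCA, the full cyclic AMP response element, 21.22% its shorter form TGACG (which the full element also contains), 2.37% TGACATCA, a JUN-ATF type site, 6.57% TGANTCA, the classical AP-1 site, 0.72% the EGR1 site GCGTGGGCG and 1.16% a CArG box, the site of serum response factor. EGR1 and JUND are shown in full because EGR1 had the widest range between groups and JUND alone held the full cyclic AMP response element. Capitals mark the CArG boxes of EGR1, at -105 and -83 from the start site, and the TGACGTCA of JUND, at -200. The EGR1 window is chr5:138465229-138465478 on the plus strand and the JUND window is chr19:18281623-18281872 on the minus strand.
EGR1: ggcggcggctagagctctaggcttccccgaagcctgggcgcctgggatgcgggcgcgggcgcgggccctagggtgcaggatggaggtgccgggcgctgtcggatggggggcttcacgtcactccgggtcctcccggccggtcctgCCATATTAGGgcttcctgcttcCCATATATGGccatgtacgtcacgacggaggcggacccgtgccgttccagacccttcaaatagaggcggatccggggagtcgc
JUND: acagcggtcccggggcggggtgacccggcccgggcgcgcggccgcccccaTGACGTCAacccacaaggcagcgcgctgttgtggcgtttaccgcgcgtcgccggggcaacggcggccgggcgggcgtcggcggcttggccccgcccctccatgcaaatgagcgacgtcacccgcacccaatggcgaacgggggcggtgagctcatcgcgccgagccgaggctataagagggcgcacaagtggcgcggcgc
ATF3 had another window inside the gene (chr1:212614768-212615017), which held no TGACATCA. Shorter stretches of 30 bases are shown for JUN and ATF3, which shared TGACATCA, and for FOS and FOSB, which shared TGACG at -64 and -60. They come from chr1:58784096-58784125 (minus strand), chr1:212565273-212565302, chr14:75278752-75278781 and chr19:45467924-45467953 (plus strand), in the order printed.
JUN: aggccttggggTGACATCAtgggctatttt
ATF3: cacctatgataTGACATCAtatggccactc
FOS: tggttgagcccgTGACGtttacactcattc
FOSB: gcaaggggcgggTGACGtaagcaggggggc
No member window held TGANTCA or GCGTGGGCG, and 8 of the 9 held TGACG in either orientation. A match describes the letters only and was not tested as a site in these cells.

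In untreated cells the genes covered a wide range of nascent signal. Per kilobase of exon, JUNB was highest at 37.9 ± 1.17 CPM per kb (SD, n = 2), followed by JUND at 26.0 ± 0.0728, JUN at 15.2 ± 1.48, FOSL1 at 14.3 ± 0.482, IER2 at 13.3 ± 0.196, FOSL2 at 10.5 ± 0.355 and FOS at 7.39 ± 0.332. ATF3 at 0.928 ± 0.0277, EGR1 at 0.539 ± 0.0100 and FOSB at 0.304 ± 0.0327 CPM per kb were far lower. JUN and FOSL1 were closer to each other than the spread of JUN, and the other neighbours in this order lay further apart than their SDs. The feature that reads were counted over is not given in the sources used here, so these per-length levels rest on exonic length. The low genes were thinly counted, with 4 to 85 counts per library for EGR1, 9 to 85 for FOSB and 14 to 104 for ATF3, against 611 to 1637 for FOSL2.

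**Figure D1:**
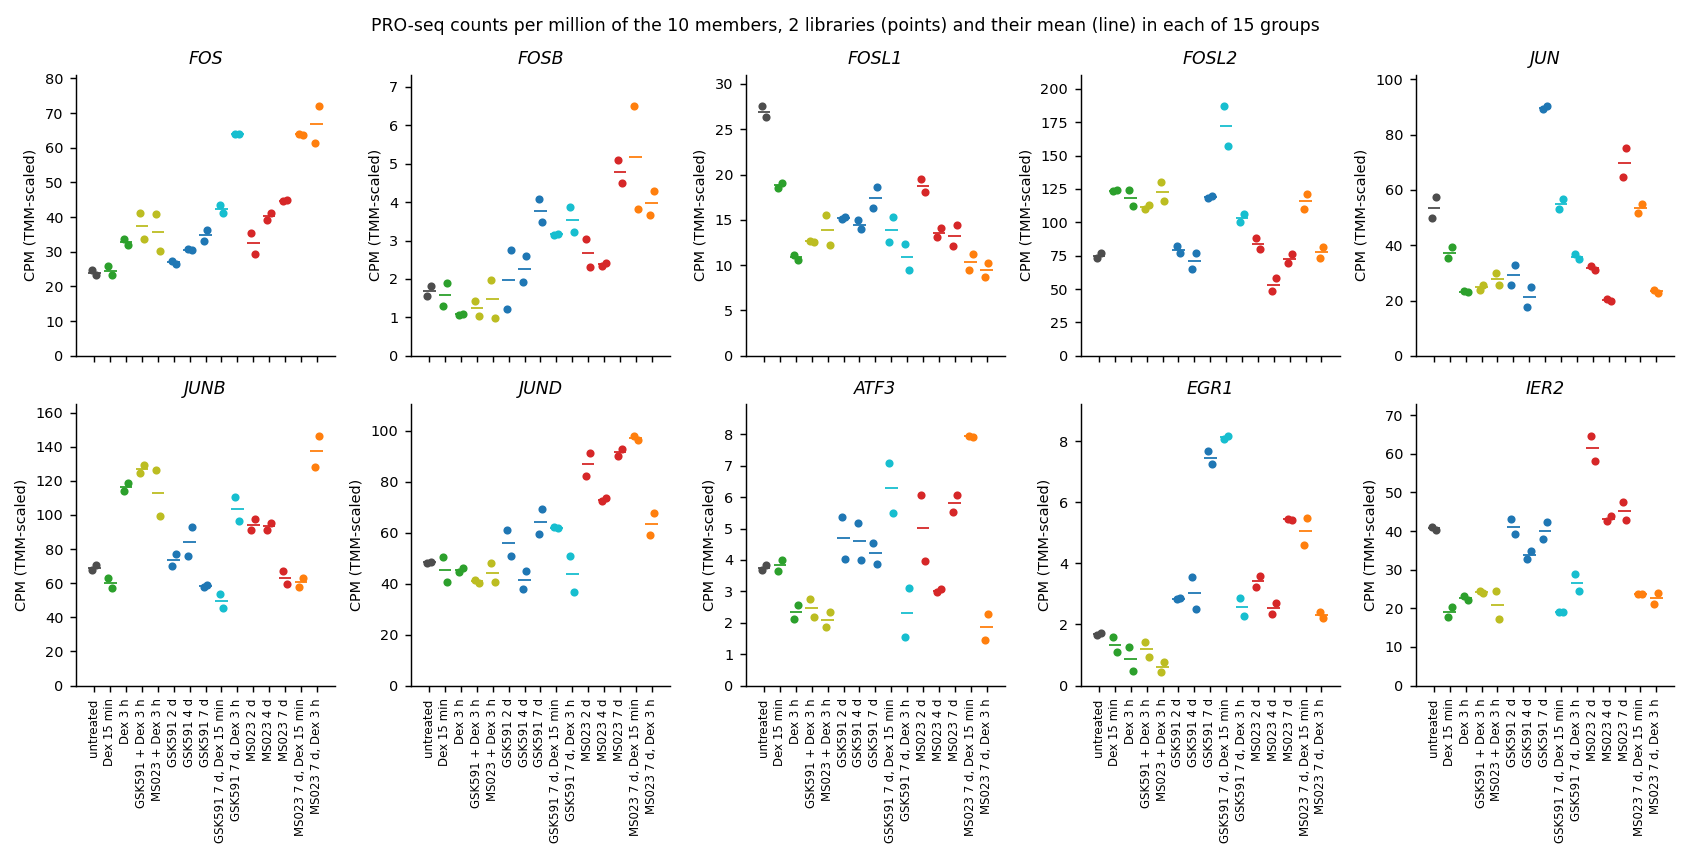
CPM (TMM-scaled, vertical axes from 0) of each of the 10 genes in the 15 groups, with points for the 2 libraries and a line for their mean. JUN is near 90 CPM at 7 days of GSK591 and near 20 CPM at 4 days of either inhibitor, and FOSL1 is highest in untreated cells.

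Within 15 min of Dex, 3 of the 10 genes changed, where 1.26% of all genes tested did: FOSL2 rose and JUN and IER2 fell. A gene is said to change, or to be called, at an adjusted p under 0.05. FOSL2 encodes FRA-2, a FOS family protein. It read 73.2 and 76.8 CPM in untreated cells and 123 and 124 CPM after 15 min, a log2 difference of 0.72 (SE 0.11, adjusted p = 1.11e-05 by edgeR's quasi-likelihood test with Benjamini-Hochberg adjustment, the test used throughout). IER2, a small immediate early nuclear protein, read 41.2 and 40.3 CPM before and 17.9 and 20.3 CPM after, a fall of 1.09 (SE 0.13, adjusted p = 2.58e-08). The untreated libraries of both genes lay clear of the Dex libraries. JUN, the prototype JUN protein, went from 49.9 and 57.3 CPM to 35.3 and 39.4 CPM (log2 -0.52, SE 0.12, adjusted p = 0.0120). The call of JUN was lost without untreated replicate 2 (-0.42) and without Dex 15 min replicate 1 (-0.45). With total-count scaling neither JUN (-0.20) nor IER2 (-0.77) passed the threshold, which left 1 member higher and 0 lower.

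The other genes did not pass at 15 min. FOSL1, which encodes FRA-1, read 27.6 and 26.3 CPM before and 18.6 and 19.1 CPM after, with no overlap between the groups (log2 -0.52, adjusted p = 0.0529). FOS, the founding immediate early AP-1 gene, read 24.7 and 23.2 CPM before and 25.8 and 23.2 CPM after, a difference of 0.03 with a 95% interval of -0.23 to 0.30. The interval of EGR1, -1.09 to 0.42, was far wider.

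After 3 h of Dex, 6 of the 10 genes had changed, against 10.5% of all genes tested, and the family was divided: FOS, FOSL2 and JUNB rose, and FOSL1, JUN and IER2 fell. JUNB, a JUN protein known to restrain JUN activity, read 114 and 119 CPM against 67.5 and 70.5 CPM in untreated cells (log2 0.76, SE 0.11, adjusted p = 2.00e-06). FOSL2 stayed above untreated cells at 124 and 112 CPM (0.66, SE 0.11, adjusted p = 1.35e-05). FOS read 33.6 and 31.9 CPM (0.45, SE 0.13, adjusted p = 0.0143), above both untreated libraries. Its call was lost without untreated replicate 1 (0.50), without untreated replicate 2 (0.41), without Dex 3 h replicate 1 (0.42) and with total-count scaling (0.62).

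Among the genes that fell, FOSL1 dropped to 11.2 and 10.6 CPM (log2 -1.30, SE 0.15, adjusted p = 6.77e-09) and JUN to 23.4 and 23.1 CPM (-1.21, SE 0.13, adjusted p = 5.01e-10). IER2 read 23.3 and 22.2 CPM (-0.84, SE 0.13, adjusted p = 2.09e-06). These 3 calls and those of JUNB and FOSL2 were kept with any single library left out. Of the 4 genes without a call, JUND, the JUN protein usually expressed without a stimulus, read 44.6 and 46.2 CPM against 48.3 and 48.5 CPM (interval -0.35 to 0.16). ATF3, a stress-induced bZIP factor, gave -0.68 (adjusted p = 0.174), EGR1, a zinc finger factor of the same kinase pathway, -0.89 (adjusted p = 0.188) and FOSB -0.64 (adjusted p = 0.417).

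Adding either inhibitor for the same 3 h as Dex changed none of the 10 genes relative to Dex alone. For GSK591 no gene of any kind was called (0% of all genes tested), no member had an unadjusted p under 0.05, and DESeq2 also called 0 members. For MS023, 0.196% of all genes were called, 1 member (FOSL1) had an unadjusted p under 0.05, and DESeq2 called 0 members. The share of all genes with an unadjusted p under 0.05 is not given here. JUN read 23.7 and 25.8 CPM with GSK591 and 30.0 and 25.5 CPM with MS023, against 23.4 and 23.1 CPM with Dex alone. The 95% interval of its difference was -0.18 to 0.36 with GSK591 and -0.02 to 0.52 with MS023. For FOSL2 the intervals were -0.30 to 0.13 and -0.16 to 0.27, and for EGR1 they were -0.52 to 1.28 and -1.57 to 0.49. The interval for FOSL1 with MS023 was 0.01 to 0.67 (0.34, adjusted p = 0.331). The replicates of MS023 with Dex were the least alike of all groups by correlation, at 0.923 over 11117 genes, and their JUNB values were 127 and 99.6 CPM. By spread beyond counting noise (chi-square per degree of freedom) the replicates of 7 days of GSK591 were the least alike, at 71.6 against 42.2 for MS023 with Dex.

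Longer exposure to the inhibitors alone moved more of the genes. At 2 days GSK591 had changed 2 members (5.64% of all genes tested) and MS023 had changed 7 (10.4%). At 4 days the counts were 3 for GSK591 (17.2%) and 6 for MS023 (14.2%). At 7 days they were 7 for GSK591 (13.2%) and 6 for MS023 (13.6%). By direction, from the shortest to the longest exposure, the members higher and lower numbered 0 and 2, 1 and 2, then 6 and 1 for GSK591. For MS023 they numbered 5 and 2, 3 and 3, then 5 and 1. With total-count scaling the numbers were 0 and 0, 3 and 1, then 3 and 0 for GSK591, and 8 and 0, 6 and 1, then 9 and 0 for MS023, so that this balance depends on the scaling. Under that scaling the median of all genes itself stood at 1.02 at 7 days of MS023. The share of all genes called under it is not given, here or beside the other total-count numbers. Whether the members exceeded that share cannot be read from them.

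JUN fell at the shorter times and was above untreated cells at 7 days in both series. With GSK591 it read 25.7 and 33.0 CPM at 2 days, 17.5 and 24.8 CPM at 4 days and 89.2 and 90.5 CPM at 7 days, against 49.9 and 57.3 CPM untreated. The log2 differences from untreated were -0.87 (SE 0.13, adjusted p = 1.59e-05), -1.35 (SE 0.13, adjusted p = 3.77e-11) and 0.74 (SE 0.12, adjusted p = 8.79e-06). With MS023 it read 32.5 and 30.9, 20.5 and 19.7, and 64.6 and 75.2 CPM, for differences of -0.76 (SE 0.12, adjusted p = 2.00e-05), -1.42 (SE 0.13, adjusted p = 5.11e-12) and 0.38 (SE 0.12, adjusted p = 0.0231). The libraries at 2 and 4 days were all below the untreated ones and those at 7 days all above. The MS023 call at 7 days was lost without untreated replicate 1 (0.28), without MS023 7 d replicate 2 (0.27) and in DESeq2 (0.40). With total-count scaling the falls at 2 days were -0.57 with GSK591 and -0.09 with MS023, neither past the threshold.

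The turn of JUN between 4 and 7 days was tested directly, in a comparison added after the values had been seen. JUN was higher at 7 than at 4 days by 2.09 (SE 0.13, adjusted p = 4.61e-17) with GSK591 and by 1.80 (SE 0.12, adjusted p = 5.28e-15) with MS023, and both calls were kept with any single library left out. In these comparisons 5 members (8.29% of all genes tested) and 6 members (9.04%) were called, 4 higher and 1 lower with GSK591 and 5 higher and 1 lower with MS023 (1 and 1, and 5 and 0, with total-count scaling). JUNB went the other way, from 76.2 and 92.7 CPM to 58.0 and 59.2 CPM with GSK591 (-0.53, SE 0.12) and from 91.4 and 95.3 CPM to 67.2 and 59.4 CPM with MS023 (-0.56, SE 0.11). The JUNB call with GSK591 was lost without GSK591 4 d replicate 2 (-0.38), and that with MS023 under total-count scaling (-0.29). Since the untreated cells carry no matching time in days, time in culture and exposure to inhibitor cannot be told apart.

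**Figure D2:**
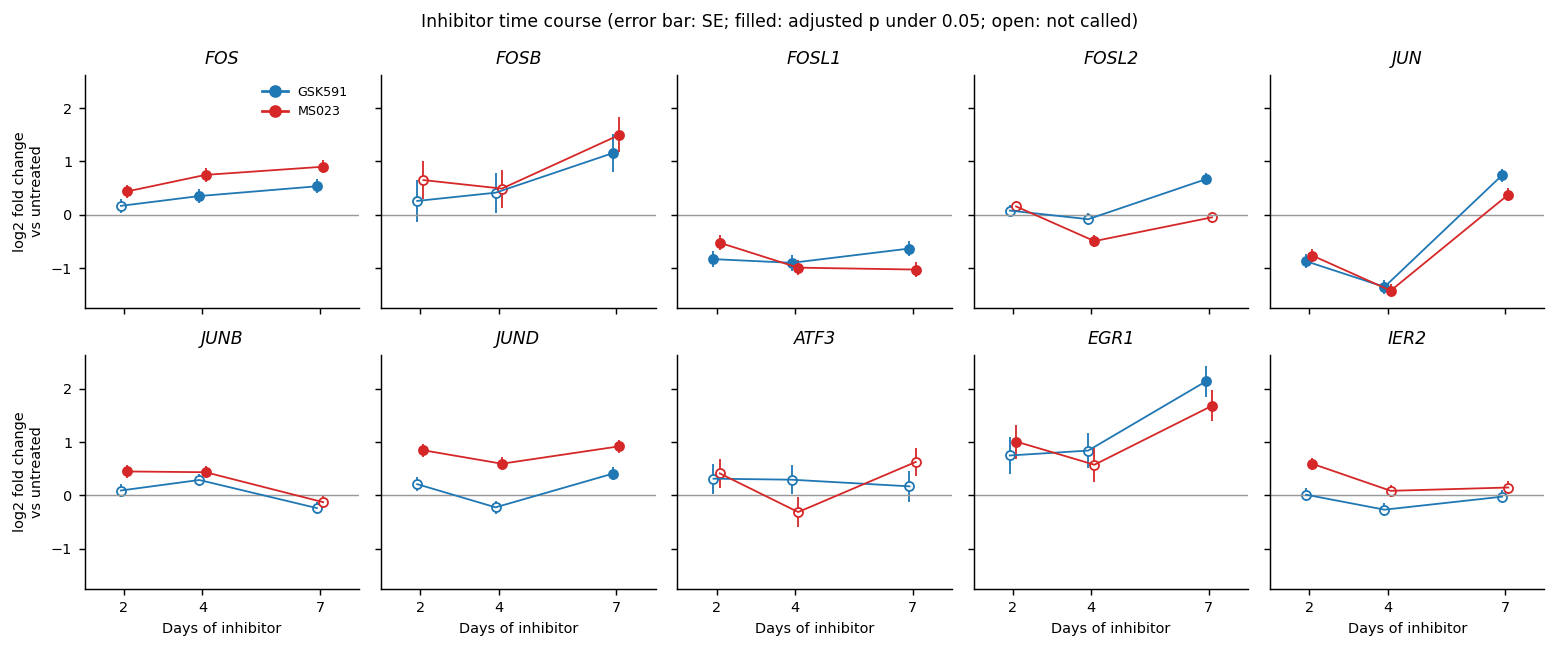
The log2 fold change against untreated cells (vertical axis) of each gene at 2, 4 and 7 days (horizontal axis) of GSK591 (blue) and MS023 (red), with SE as error bars, filled points for an adjusted p under 0.05 and open points for the rest. JUN is at -1.35 and -1.42 at 4 days and at 0.74 and 0.38 at 7 days, and FOSL1 is below 0 at all 6 points.

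In the FOS family, FOSL1 was below untreated cells at all 3 times with both inhibitors. Its CPM values were 15.1 and 15.3 at 2 days of GSK591, 15.0 and 13.9 at 4 days and 16.3 and 18.6 at 7 days, against 27.6 and 26.3 untreated. With MS023 they were 19.5 and 18.1, 13.1 and 14.1, and 12.1 and 14.4. The log2 differences were -0.83, -0.90 and -0.63 with GSK591 and -0.52, -0.99 and -1.02 with MS023, all past the threshold. The call at 7 days of GSK591 was lost without GSK591 7 d replicate 1 (-0.54). The call at 2 days of MS023 was lost in DESeq2 (-0.52) and without any 1 of its 4 libraries (from -0.47 to -0.58). With total-count scaling none of the 6 passed, 5 of them keeping their sign (-0.53, -0.47 and -0.66 with GSK591, -0.24 at 4 days and -0.01 at 7 days of MS023) and the MS023 value at 2 days turning to 0.16.

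FOS was above untreated cells in every library given an inhibitor alone for days, and 5 of the 6 differences passed the threshold. It read 27.4 and 26.4, 30.7 and 30.4, and 33.1 and 36.3 CPM at 2, 4 and 7 days of GSK591, and 35.5 and 29.4, 39.2 and 41.3, and 44.5 and 44.9 CPM with MS023, against 24.7 and 23.2 CPM untreated. It was not called between 4 and 7 days, at 0.18 with GSK591 and 0.15 with MS023. With MS023 the differences were 0.44 (SE 0.13, adjusted p = 0.0181), 0.75 (SE 0.12, adjusted p = 1.51e-05) and 0.90 (SE 0.12, adjusted p = 4.54e-07). With GSK591 they were 0.17 (adjusted p = 0.523), 0.35 (SE 0.13, adjusted p = 0.0482) and 0.54 (SE 0.13, adjusted p = 0.00289). The GSK591 call at 4 days was lost without any 1 of its 4 libraries (0.31 to 0.40), with no filter (0.35) and in DESeq2 (0.37). That at 7 days was lost without untreated replicate 2 (0.49), without GSK591 7 d replicate 2 (0.47) and with total-count scaling (0.51). The MS023 call at 2 days was lost without untreated replicate 1 (0.48), untreated replicate 2 (0.40) or MS023 2 d replicate 1 (0.29), and in DESeq2 (0.44).

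FOSB was called at 7 days with both inhibitors, and FOSL2 at 7 days of GSK591 and 4 days of MS023, in opposite directions. FOSB, an inducible FOS protein, was low in untreated cells (1.56 and 1.81 CPM) and read 4.07 and 3.48 CPM at 7 days of GSK591 and 5.10 and 4.49 CPM at 7 days of MS023. The differences were 1.16 (SE 0.36, adjusted p = 0.0219) and 1.50 (SE 0.33, adjusted p = 0.000893). With GSK591 the FOSB call was lost without any 1 of the 4 libraries (1.03 to 1.28), in DESeq2 (1.19) and with total-count scaling (1.13). That scaling called FOSB also at 2 days (1.32) and 4 days (1.23) of MS023. FOSL2 rose at 7 days of GSK591 to 118 and 120 CPM (0.67, SE 0.11, adjusted p = 1.18e-05). With MS023 it fell to 48.6 and 58.2 CPM at 4 days (-0.49, SE 0.11, adjusted p = 0.00120, but 0.25 with total-count scaling and no longer called at -0.37 without MS023 4 d replicate 1). At 7 days of MS023 it read 69.3 and 76.1 CPM, with an interval of -0.26 to 0.17. That value was 0.97 and past the threshold with total-count scaling, under which the median of all genes stood at 1.02. The value at 2 days of MS023, 0.16, was likewise 0.83 and called under that scaling.

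JUND and JUNB rose with MS023 from 2 days on, JUND up to 7 days and JUNB up to 4 days. JUND read 82.4 and 91.4 CPM at 2 days of MS023 (0.85, SE 0.12, adjusted p = 2.11e-06), 72.3 and 73.8 CPM at 4 days (0.59) and 90.3 and 92.8 CPM at 7 days (0.92, SE 0.12, adjusted p = 2.17e-07), against 48.3 and 48.5 CPM untreated. With GSK591 it was called only at 7 days, at 59.4 and 69.3 CPM (0.41, SE 0.12, adjusted p = 0.0204). That call was lost without untreated replicate 1 (0.40), untreated replicate 2 (0.41) or GSK591 7 d replicate 2 (0.30), and with total-count scaling (0.37). JUNB rose with MS023 by 0.45 at 2 days and 0.43 at 4 days and was not called at 7 days (-0.13, but 0.89 and past the threshold with total-count scaling). The JUNB call at 2 days was lost without untreated replicate 1 (0.42) or MS023 2 d replicate 2 (0.39), and that at 4 days without untreated replicate 1 (0.41) or MS023 4 d replicate 2 (0.41). With GSK591 at 4 days JUNB gave 0.29, called without GSK591 4 d replicate 1 (0.41) and with total-count scaling (0.70).

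EGR1 had the largest rise of the 10 genes at 7 days. It read 1.67 and 1.71 CPM untreated, 7.67 and 7.24 CPM at 7 days of GSK591 and 5.45 and 5.43 CPM at 7 days of MS023. The log2 differences were 2.13 (SE 0.30, adjusted p = 4.75e-07) and 1.68 (SE 0.29, adjusted p = 4.06e-05), and both calls were kept with any single library left out. At 2 and 4 days the libraries lay between 2.34 and 3.60 CPM, above the untreated ones, and 1 of the 4 comparisons passed, MS023 at 2 days (1.01, adjusted p = 0.0318). That call was lost with no filter (1.01), in DESeq2 (1.01) and without any 1 of its 4 libraries (0.92 to 1.07). With total-count scaling EGR1 was also called at 4 days of GSK591 (1.26) and of MS023 (1.31). IER2 rose at 2 days of MS023 to 64.7 and 58.2 CPM (0.59, SE 0.12, adjusted p = 0.000391), and was called at 4 days (0.83) and 7 days (1.17) of MS023 only with total-count scaling. ATF3 was called at none of the 6 points, with its largest value, 0.63, at 7 days of MS023 (adjusted p = 0.0976). With total-count scaling ATF3 was called at 2 days (1.09) and 7 days (1.64) of MS023.

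**Figure D3:**
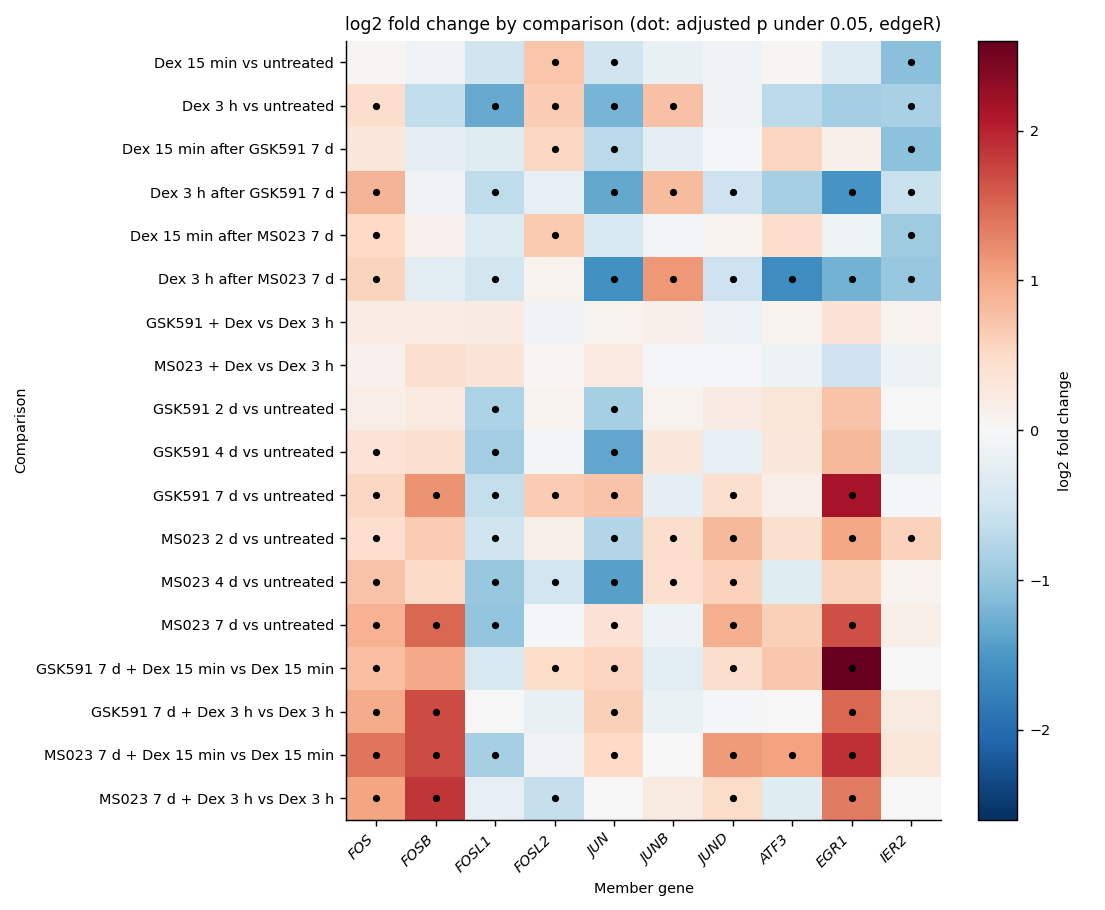
The log2 fold change (colour) of the 10 genes (horizontal axis) in each comparison (vertical axis), with a dot where the adjusted p was under 0.05. The column of JUN changes colour between 4 and 7 days of either inhibitor, and EGR1 is at 2.13 at 7 days of GSK591 against untreated cells.

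Compared directly at the same dose of 1 µM and the same time, the inhibitors differed in 2 members at 2 days (2.69% of all genes tested), 3 at 4 days (6.03%) and 4 at 7 days (9.38%). JUND was lower with GSK591 than with MS023 at all 3 times, by -0.63 (SE 0.12), -0.82 (SE 0.12) and -0.51 (SE 0.12). FOSL2 was higher with GSK591 at 4 days (0.41, SE 0.11, adjusted p = 0.0136) and at 7 days (0.71, SE 0.11, adjusted p = 3.94e-06). The 7 day libraries did not overlap, at 118 and 120 CPM with GSK591 and 69.3 and 76.1 CPM with MS023, but with total-count scaling the difference was -0.33. IER2 was lower with GSK591 at 2 days (-0.58, SE 0.12). FOS was lower with GSK591 at 4 days (-0.40, adjusted p = 0.0368) and 7 days (-0.37, adjusted p = 0.0451), and JUN was higher at 7 days (0.36, adjusted p = 0.0378, but -0.68 and past the threshold with total-count scaling). In the same order of times, members higher and lower with GSK591 numbered 0 and 2, 1 and 2, then 2 and 2. With total-count scaling these became 0 and 3, 0 and 3, then 0 and 8, the 7 day values including FOSB (-1.38), JUNB (-1.15), ATF3 (-1.49) and IER2 (-1.22).

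Several of these calls rested on single libraries. The JUND call was lost at 2 days without GSK591 2 d replicate 2 (-0.51) and at 7 days without GSK591 7 d replicate 1 (-0.41). IER2 lost its call without GSK591 2 d replicate 2 (-0.51) or MS023 2 d replicate 1 (-0.49). FOSL2 at 4 days lost it without GSK591 4 d replicate 2 (0.28), without MS023 4 d replicate 1 (0.28) and with total-count scaling (0.08). FOS lost it at both times without any 1 of the libraries (-0.36 to -0.44 at 4 days and -0.31 to -0.43 at 7 days) and in DESeq2 (-0.39 and -0.36). JUN lost it without GSK591 7 d replicate 1 (0.37), GSK591 7 d replicate 2 (0.35) or MS023 7 d replicate 1 (0.27), with no filter (0.31) and in DESeq2 (0.37). For EGR1 the 95% interval of the difference at 7 days was -0.02 to 0.93, and for FOSB -0.93 to 0.25.

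Dex given after 7 days of inhibitor moved most of the same genes, compared with 7 days of that inhibitor alone. At 15 min 3 members were called after GSK591 (2.09% of all genes tested) and 3 after MS023 (2.07%). IER2 fell from 37.9 and 42.3 CPM to 19.0 and 19.1 CPM after GSK591 (-1.07, SE 0.13, adjusted p = 7.99e-08) and from 47.5 and 42.8 CPM to 23.7 and 23.6 CPM after MS023 (-0.93, SE 0.12, adjusted p = 2.33e-07). FOSL2 rose from 118 and 120 CPM to 187 and 158 CPM (0.53, SE 0.11, adjusted p = 0.00190) and from 69.3 and 76.1 CPM to 110 and 122 CPM (0.67, SE 0.11, adjusted p = 3.57e-05). JUN fell after GSK591 to 53.0 and 56.7 CPM (-0.71, SE 0.12, adjusted p = 0.000122) and gave -0.39 after MS023 (adjusted p = 0.0657, or 0.0254 with no filter at -0.44). FOS rose after MS023 to 63.9 and 63.8 CPM (0.51, SE 0.11, adjusted p = 0.00521).

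Of these 15 min calls, FOSL2 after GSK591 was lost without GSK591 7 d replicate 1 (0.52) and without replicate 1 of GSK591 7 d then Dex 15 min (0.39). FOS after MS023 was lost without MS023 7 d replicate 1 (0.52), MS023 7 d replicate 2 (0.52) or replicate 2 of MS023 7 d then Dex 15 min (0.51). With total-count scaling IER2 alone remained called after each inhibitor (0 members higher and 1 lower, against 1 and 2 after GSK591 and 2 and 1 after MS023), and the others kept their direction, with FOSL2 at 0.56 and JUN at -0.65 after GSK591 and FOSL2 at 0.52 and FOS at 0.37 after MS023.

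After 3 h of Dex on top of the inhibitors, 7 members were called after GSK591 (9.85% of all genes tested) and 8 after MS023 (11.1%). JUN fell to 36.7 and 35.0 CPM after GSK591 (-1.32, SE 0.12, adjusted p = 7.64e-12) and to 23.9 and 22.8 CPM after MS023 (-1.58, SE 0.12, adjusted p = 1.40e-14). JUNB rose to 111 and 96.7 CPM (0.82, SE 0.12, adjusted p = 4.39e-07) and to 128 and 147 CPM (1.12, SE 0.11, adjusted p = 5.39e-11). FOS rose to 64.1 and 64.0 CPM (0.88, SE 0.12, adjusted p = 2.77e-07) and to 61.4 and 72.1 CPM (0.58, SE 0.11, adjusted p = 0.000200, at 0.57 and not called with total-count scaling). These 3 genes moved in the direction they took under Dex without inhibitor.

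EGR1, raised by the inhibitors, fell under 3 h of Dex to 2.87 and 2.29 CPM after GSK591 (-1.53, SE 0.28, adjusted p = 6.78e-05) and to 2.42 and 2.21 CPM after MS023 (-1.23, SE 0.26, adjusted p = 0.000489). ATF3 fell after MS023 from 5.52 and 6.08 CPM to 1.46 and 2.29 CPM (-1.62, SE 0.27, adjusted p = 1.15e-05), and after GSK591 it gave -0.87 (adjusted p = 0.0712), called at -1.45 without replicate 2 of GSK591 7 d then Dex 3 h. JUND fell by 0.55 after GSK591 and by 0.53 after MS023, IER2 by 0.59 and by 1.00, and FOSL1 by 0.67 and by 0.49.

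**Figure D4:**
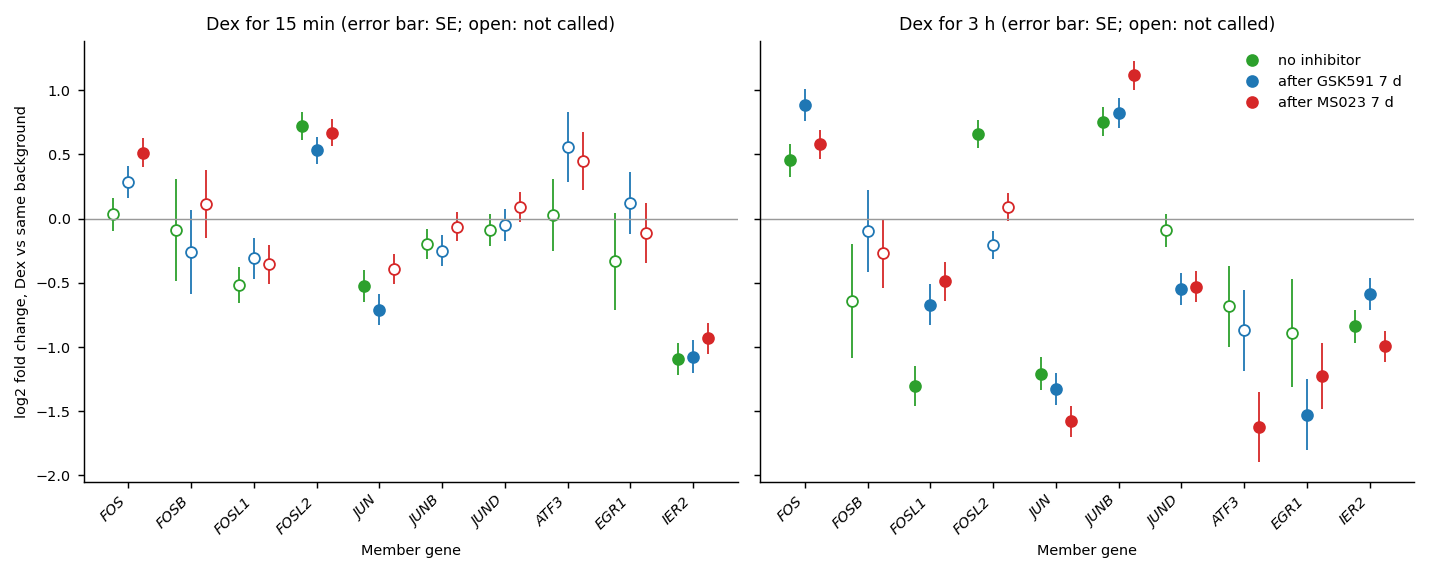
The log2 fold change (vertical axis, SE as error bars) of the 10 genes (horizontal axis) after 15 min (left) and 3 h (right) of Dex against the same background without Dex: no inhibitor (green), 7 days of GSK591 (blue) or 7 days of MS023 (red), with open points for genes not called. At 3 h FOSL2 is at 0.66 without inhibitor, -0.21 after GSK591 and 0.09 after MS023.

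In the 3 h comparisons after GSK591, the calls of FOSL1 (-0.58) and JUND (-0.44) were lost without GSK591 7 d replicate 2, and those of FOSL1 (-0.50), JUND (-0.33) and IER2 (-0.48) without replicate 2 of GSK591 7 d then Dex 3 h. With total-count scaling these 3 gave -0.44, -0.30 and -0.36, not called, which left 2 members higher and 2 lower, against 2 and 5. After MS023 the call of FOSL1 was lost without MS023 7 d replicate 2 (-0.36), without replicate 1 of MS023 7 d then Dex 3 h (-0.36), in DESeq2 (-0.49) and with total-count scaling (-0.49). JUND after MS023 was lost without replicate 1 of MS023 7 d then Dex 3 h (-0.43) and with total-count scaling (-0.54).

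FOSL2 was the only member called in the tests of a Dex response that differed with inhibitor, and only at 3 h after GSK591. After 7 days of GSK591 it read 118 and 120 CPM without Dex, 187 and 158 CPM at 15 min and 100 and 106 CPM at 3 h, while without inhibitor it read 73.2 and 76.8, 123 and 124, and 124 and 112 CPM. The response at 3 h was 0.66 without inhibitor and -0.21 (interval -0.42 to 0.01) after GSK591, a difference between responses of -0.86 (SE 0.15, adjusted p = 0.00307). That difference was called in 0.223% of all genes tested, and the FOSL2 call was kept with any single library left out. In this comparison 4 members, FOSL2 among them, had an unadjusted p under 0.05. With total-count scaling the difference was -0.82 and no gene among the 10 was called. After MS023 the 3 h difference for FOSL2 was -0.56 (SE 0.15, adjusted p = 0.0978). At 15 min it was -0.19 (interval -0.49 to 0.12) after GSK591 and -0.05 (interval -0.36 to 0.25) after MS023. No other member was called in the 4 such comparisons. At 15 min 0.00436% of all genes were called after either inhibitor, and at 3 h after MS023 0.223% were called. An unadjusted p under 0.05 was reached by 0 and 1 member (FOS after MS023, 0.48) at 15 min and by 6 members at 3 h after MS023. The shares of all genes are at an adjusted p under 0.05. No share at an unadjusted p is given here, so the unadjusted numbers of members have none to be set against. The FOSL1 difference at 3 h was 0.82 after MS023 (SE 0.22, adjusted p = 0.0872) and 0.63 after GSK591 (SE 0.23, adjusted p = 0.294).

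Seen the other way, cells with 7 days of inhibitor before Dex were compared with cells given Dex alone for the same time. At 15 min 5 members were called after GSK591 (15.3% of all genes tested) and 7 after MS023 (15.3%), and at 3 h 4 after GSK591 (13.6%) and 5 after MS023 (11.5%). EGR1 was higher in all 4, by 2.59 (SE 0.30) and 1.90 (SE 0.31) at 15 min and by 1.50 (SE 0.39) and 1.34 (SE 0.38) at 3 h. FOS was also higher in all 4, by 0.79 and 1.38 at 15 min and by 0.97 and 1.03 at 3 h. FOSB was higher in 3 of the 4, by 1.70 at 3 h after GSK591 and by 1.70 and 1.87 at 15 min and 3 h after MS023. The level of EGR1 under Dex alone at 3 h was low, at 1.28 and 0.488 CPM, and its 3 h calls were lost without Dex 3 h replicate 2 (1.01 after GSK591 and 0.85 after MS023), without replicate 1 of the inhibitor and Dex group (1.32 and 1.29) and, for MS023, in DESeq2 (1.37). The FOS value after GSK591 at 15 min was 0.50 and not called with total-count scaling.

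The JUN and FOSL2 values in these comparisons differed with the inhibitor and the time. JUN was higher after GSK591 by 0.56 at 15 min (SE 0.12) and 0.63 at 3 h (SE 0.13), and after MS023 by 0.51 at 15 min (SE 0.12) but by 0.01 at 3 h (interval -0.26 to 0.28). FOSL2 was higher after GSK591 at 15 min (0.48, SE 0.11) and lower after MS023 at 3 h (-0.61, SE 0.11, but 0.24 with total-count scaling). JUND was higher after GSK591 at 15 min (0.45) and after MS023 at 15 min (1.10) and 3 h (0.48). FOSL1 was lower (-0.86) and ATF3 higher (1.05) after MS023 at 15 min. With total-count scaling the calls of JUN (0.27), FOSL2 (0.16) and JUND (0.16) at 15 min and of JUN (0.64) at 3 h after GSK591, and of FOSL1 at 15 min after MS023 (-0.32), were lost. Members higher and lower went from 5 and 0 to 1 and 2 at 15 min after GSK591, where FOSL1 (-0.70) and JUNB (-0.60) gained calls, from 6 and 1 to 8 and 0 at 15 min after MS023, where JUNB (0.56) and IER2 (0.86) did, and from 4 and 1 to 8 and 0 at 3 h after MS023, where FOSL1 (0.64), JUN (0.85), JUNB (1.07) and IER2 (0.84) did. Calls lost without a library were JUND after GSK591 at 15 min (0.29 without Dex 15 min replicate 2, 0.45 without replicate 2 of the combined group), FOSL2 after GSK591 (0.34 without replicate 1 of the combined group), JUN after MS023 (0.43 without Dex 15 min replicate 1) and JUND after MS023 at 3 h (0.46 without Dex 3 h replicate 1, 0.39 without replicate 2 of the combined group).

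The authors' deposited tables hold 14 comparisons with untreated cells, of which 8 (Dex alone and each inhibitor alone) were set side by side with the edgeR fit for 8 of the 10 genes. JUN and ATF3 have no entry under these names in the authors' deposited tables. The JUN values at 2, 4 and 7 days of the inhibitors could therefore not be set side by side. The 2 sources also differ in their counts per gene. The authors' mean of normalised counts was 108 for JUNB and 761 for IER2, where the deposited counts averaged 913 and 340. Gaps between the sources are therefore not those of the test alone, and their cause was not tested. In the authors' deposited tables an adjusted p under 0.05 was reached by 3.93% of the genes given one at 15 min of Dex and by 21.9% at 3 h, by 14.7%, 26.8% and 23.8% at 2, 4 and 7 days of GSK591 and by 17.7%, 22.5% and 22% at 2, 4 and 7 days of MS023. Of the 64 values, 3 had no adjusted p in the authors' deposited tables, all of EGR1. Of the other 61, 27 passed an adjusted p of 0.05 in both sources, all 27 with the same sign, 4 passed in the edgeR fit only, 5 in the authors' deposited table only and 25 in neither. The 4 were FOSB at 7 days of GSK591 and of MS023, FOSL1 at 7 days of GSK591 and FOS at 4 days of GSK591. The 5 were FOSL1 at 15 min and JUND at 3 h of Dex, FOSB at 4 days of GSK591 and IER2 at 4 and 7 days of MS023. For FOS at 7 days of MS023 the authors' deposited table gives 1.38, where the edgeR fit gave 0.90. For EGR1 at 7 days of GSK591 the authors' deposited table gives 1.24, where the edgeR fit gave 2.13. For FOSL1 at 7 days of MS023 the authors' deposited table gives -0.39, where the edgeR fit gave -1.02. For JUND at 3 h of Dex the authors' deposited table gives -0.46 and a call, where the edgeR fit gave -0.09 and none.

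**Figure D5:**
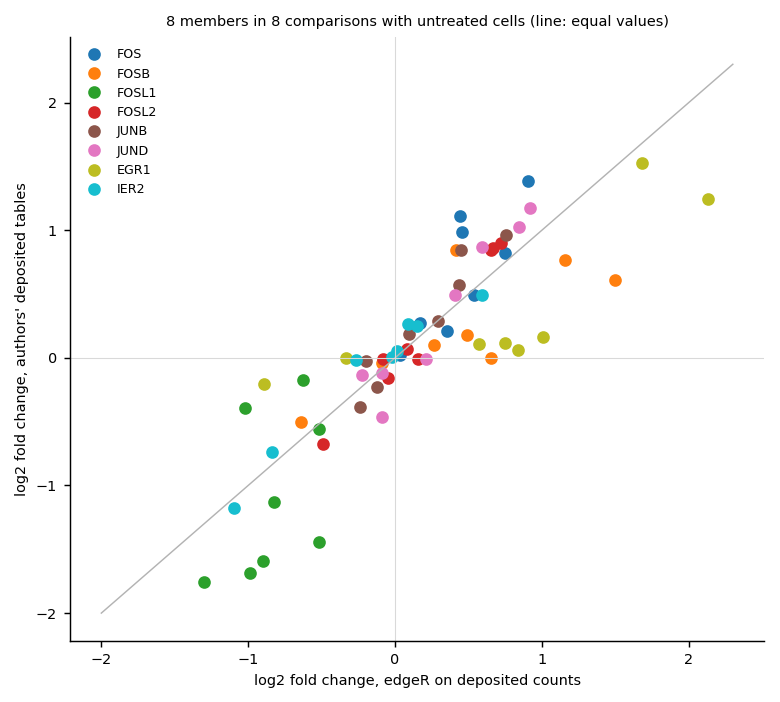
The log2 fold change from edgeR on the deposited counts (horizontal axis) against that in the authors' deposited tables (vertical axis) for 8 genes (colours) in 8 comparisons, with a line of equal values. Points for EGR1 lie mostly between 0 and the line, and FOSL1 spreads to both sides of it. The mean counts per gene also differ between the sources.

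Related genes were read from lists chosen with earlier results of these data known. Of 22 other immediate early genes tested, 8 rose and 5 fell at 3 h of Dex (median log2 0.30, against -0.01 over all genes tested), 8 rose and 6 fell at 7 days of GSK591 (0.06 against 0.00 over all genes) and 7 rose and 6 fell at 7 days of MS023 (0.18 against 0.01). Over all genes tested the called shares, in either direction, were 10.5%, 13.2% and 13.6% in these comparisons. ZFP36, an RNA-binding protein that destabilises cytokine mRNA, rose from 56.8 and 55.4 CPM to 232 and 217 CPM at 3 h of Dex (2.00, SE 0.11). NR4A1, an orphan nuclear receptor, read 21.4 and 22.2 CPM untreated and fell at 3 h of Dex (-1.40, SE 0.18), at 7 days of GSK591 (-1.29, SE 0.18) and at 7 days of MS023 (-1.68, SE 0.17). BTG2, an antiproliferative immediate early gene, rose at 7 days of GSK591 (1.29, SE 0.17), and CCN2, a matricellular growth factor gene, rose at 7 days of MS023 (1.32, SE 0.15). EGR1 and NR4A1, both immediate early genes, thus moved in opposite directions at 7 days of either inhibitor.

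Among 14 tested AP-1 partners and related bZIP factors, 2 fell at 3 h of Dex, 3 rose and 1 fell at 7 days of GSK591, and 1 rose and 2 fell at 7 days of MS023, where 10.5%, 13.2% and 13.6% of all genes tested were called. The pair that fell under Dex were the small MAF factors MAFK (-1.53, SE 0.13) and MAFG (-0.68, SE 0.12), although MAFG rose at 7 days of MS023 (0.43, SE 0.11). NFE2L1, a stress-responsive bZIP factor, fell at 7 days of GSK591 (-0.65, SE 0.12) and of MS023 (-0.53, SE 0.12), and JDP2, a repressor that dimerises with JUN, rose at 7 days of GSK591 (0.66, SE 0.15). Of 18 upstream kinases and SRF-ETS factors, 1 rose at 3 h of Dex (MAP2K2, 0.69), 1 rose and 1 fell at 7 days of GSK591 and 0 were called at 7 days of MS023, each below those shares over all genes. The gene that fell was MRTFA, a coactivator of SRF (-0.45, SE 0.16, adjusted p = 0.0466). SRF, the factor that binds CArG boxes, rose at 7 days of GSK591 from 12.1 and 11.9 CPM to 20.1 and 19.4 CPM (0.72, SE 0.17, adjusted p = 0.00223). Of 13 tested AP-1 target genes, 2 rose and 3 fell at 3 h of Dex, 2 rose and 1 fell at 7 days of GSK591, and 0 rose and 3 fell at 7 days of MS023, beside the same 10.5%, 13.2% and 13.6%. HMOX1, the haem oxygenase gene, fell at 3 h of Dex (-1.05, SE 0.17), SPHK1, a sphingosine kinase gene, at 7 days of GSK591 (-0.52, SE 0.13) and VIM, the vimentin gene, at 7 days of MS023 (-0.51, SE 0.12). PLAU, the urokinase gene, rose at 7 days of GSK591 from 9.57 and 10.6 CPM to 23.8 and 23.7 CPM (1.24, SE 0.17), and its receptor gene PLAUR fell at 3 h of Dex (-1.34, SE 0.17) and at 7 days of MS023 (-0.54, SE 0.15).

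Across the 30 libraries, which share treatments and 1 scaling, the genes were described by their correlation with each other on the log2 CPM scale. Of 45 pairs, 9 had r over 0.5 and 5 had r under -0.5. FOSB and EGR1 were the most alike (0.73), followed by ATF3 and EGR1 (0.67) and FOS and FOSB (0.66), although FOSB, ATF3 and EGR1 are the most thinly counted genes. JUNB ran against ATF3 (-0.80), JUN (-0.73) and EGR1 (-0.66), FOS against FOSL1 (-0.74) and FOSL2 against IER2 (-0.66). Among 11117 genes the closest to each member were GPD1 for FOS (0.91), GADD45G for FOSB (0.87), AFAP1 for FOSL1 (0.84), MMP24 for FOSL2 (0.88), RND3 for JUN (0.90), GAS2L1 for JUNB (0.94), AC023157.3 for JUND (0.87), GCNT3 for ATF3 (0.85), SLFN5 for EGR1 (0.91) and EXOC3L4 for IER2 (0.92). The groups with the lowest and highest mean differed by 13.3-fold for EGR1, 4.78-fold for FOSB, 4.47-fold for JUN and 4.23-fold for ATF3, and by 2.38-fold to 3.23-fold for the other 6 genes.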

How the data were processed

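The deposited table holds raw counts per gene for 30 A549 PRO-seq libraries. Per the submitters' processing notes, counting used featureCounts 2.0.1 of Subread and hg38; the aligner, feature type and strand setting are not given in the sources used here. The authors also deposited comparison tables whose signal column is their mean of normalised counts. Their log2 fold changes and p-values are the authors', per the file headers. Gene names absent from the table came from GENCODE 29.

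Counts were tested with edgeR 4.0.16 (R 4.3.3, limma 3.58.1): TMM scaling, filterByExpr (minimum count 10, minimum total 15), and a robust quasi-likelihood fit of all 15 groups with 15 residual degrees of freedom, checked on simulated data. P-values were adjusted by Benjamini-Hochberg over 22919 genes in each comparison, with a threshold of 0.05. SE was derived from each log2 fold change and its F statistic, and intervals are 95%. A permutation of 2 against 2 libraries cannot go below p = 0.333, so none was used. Replicates differed beyond counting noise in every group. Alternatives were total-count scaling, DESeq2 1.42.0 and its size factors, no filter, no mitochondrial or ribosomal RNA genes, the replicate number as a block, and each library left out.

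Members and lists were chosen with earlier results of these data known. Of each list, the 2 called genes with the largest change and a mean of at least 5 CPM were named for Dex 3 h and 7 days of each inhibitor; like genes were the 3 with the highest correlation, of which the first is given. The 7 against 4 day comparisons were added after the values had been seen.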

Additional observations from a re-analysis of the deposited data

Results flagged for a closer look

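The Dex response of FOSL2 at 3 h differed between cells with and without 7 days of GSK591, by -0.86 on the log2 scale in the interaction test. With total-count scaling the difference was -0.82 and not called.

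Levels under the inhibitors differed between 4 and 7 days, by the direct test of 7 against 4 days added after the values had been seen; time in culture and exposure cannot be told apart. With GSK591 this held for JUN (2.09), EGR1 (1.29), FOSL2 (0.75), JUND (0.63) and JUNB (-0.53). With MS023 it held for JUN (1.80), EGR1 (1.10), FOSB (1.01), ATF3 (0.94), FOSL2 (0.45) and JUNB (-0.56). The call of EGR1 was lost without GSK591 4 d replicate 2 (1.06) and without MS023 4 d replicate 1 (1.00). FOSB and ATF3 with MS023 were lost in DESeq2 (1.02 and 0.95) and with single libraries left out, FOSB without any 1 of the 4 (0.91 to 1.10) and ATF3 without MS023 4 d replicate 1 (0.92), MS023 4 d replicate 2 (0.95) or MS023 7 d replicate 2 (0.87). FOSL2 with MS023 was lost without MS023 4 d replicate 1 (0.32) or MS023 7 d replicate 2 (0.38). With total-count scaling FOSL2 (0.31), JUND (0.18) and EGR1 (0.85) with GSK591 and JUNB (-0.29) with MS023 were not called.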

How the results depend on the processing

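Of 270 member values (10 genes in 27 comparisons), 270 kept direction and call without mitochondrial and ribosomal RNA genes, 269 with DESeq2 size factors and 266 without the filter; DESeq2 kept 237 of the 250 values to which it gave an adjusted p. A change of sign between values not called in either setting was counted as kept. Total-count scaling kept 203 and turned 10: at MS023 2 d FOSL1 0.16; 4 d FOSL2 0.25; 7 d FOSL2 0.97 and JUNB 0.89; for GSK591 against MS023 at 7 d FOSL1 -0.66, FOSL2 -0.33 and JUN -0.68; for MS023 7 d before Dex 3 h FOSL1 0.64, FOSL2 0.24 and IER2 0.84. It moved the number of members called by over 1.5 times in these comparisons (the report gives the other splits by direction), to 1 for Dex 15 min, 0 for GSK591 2 d, 3 for GSK591 7 d, 8 for GSK591 against MS023 at 7 d, 1 and 4 for Dex 15 min and 3 h after GSK591, 1 and 5 after MS023, 3 for GSK591 before Dex 15 min, 8 for MS023 before Dex 3 h, 0 for the GSK591 by Dex 3 h interaction and 2 for GSK591 7 against 4 d. DESeq2 moved it to 4 for MS023 2 d and 2 for GSK591 against MS023 at 7 d. With 1 library left out the count was 4 to 5 for GSK591 7 d, 3 to 4 for MS023 2 d, 0 to 2, 1 to 2 and 1 to 3 for GSK591 against MS023 at 2, 4 and 7 d, and 3 to 5 and 2 to 5 for 7 against 4 d with GSK591 and MS023. The lone library was then assumed to vary like the other groups. The shares of all genes called in these settings are not given here, and the causes were not tested. The replicate block changed 1 call (JUN after MS023 and Dex 15 min, -0.39, adjusted p = 0.0483). The deviations of same-numbered libraries had a median r of 0.02 over 105 pairs of groups, from -0.45 to 0.49. Of these pairs 22 were over 0.1 and 13 under -0.1, so the check cannot settle whether some groups were paired by number. Depth limits EGR1, FOSB and ATF3, whose SEs reach 0.51.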
